A study of Mus musculus with 26 samples.

Results

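Caveolae are flask-shaped pits of the plasma membrane, and the 6 genes described here, Cav1, Cav2, Cavin1, Cavin2, Cavin3 and Ehd2, encode their coat and their neck. They are 6 of the 45318 genes in the count files of this study, taken by name and read library by library in 4T1 control cells and in the MaTAR25 knockout (KO) clones KO1 and KO2. The set was proposed with the measured values in view, because Cav2 was lower than control in KO2 and not in KO1, so the values of Cav2 are given below as a description, with no test.

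The caveolins Cav1 and Cav2 are hairpin proteins that insert into the inner leaflet of the membrane and oligomerise, and Cav1 is needed to form caveolae outside striated muscle while Cav2 depends on Cav1 to leave the Golgi. The cavins are soluble proteins that assemble on caveolin-rich membrane. Cavin1 is the core of that coat and Cavin2 and Cavin3 join it through Cavin1. Ehd2 is an ATPase that forms rings at the neck of the pit and holds caveolae at the surface. Caveolae are abundant in adipocytes, endothelium and muscle, serve as a membrane reserve under mechanical stretch, and Cav1 is widely studied in mammary tumors.

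The RNA came from 4T1 cells, a mammary carcinoma line of BALB/c mice that grows as an aggressive tumor after transplantation. The control group is 4T1 cells labelled wild type, which per the methods carried a guide against Renilla luciferase (2 libraries). KO1 (3 libraries) and KO2 (4 libraries) are labelled MaTAR25-/- and are each 1 clone, grown from a single sorted cell after a pair of guides had cut out the start site of MaTAR25 with CRISPR/Cas9, a nuclear long noncoding RNA. The study asked which transcripts differ once MaTAR25 is lost. It used ChIRP-seq, in which biotinylated oligos pull down an RNA with the chromatin bound to it, to map MaTAR25 in 4T1 cells and in NDL mammary tumor cells of FVB mice. The labels give the genotype of the NDL cells as MMTV-PyMT while the study's text calls the model MMTV-Neu-NDL, and which of these transgenes they carried is not settled here. The study's supplement calls the cells of this ChIRP-seq cNeu, which the methods list among the cell lines. Whether they were primary cells is not settled either. Nothing in the labels says that libraries of a group came from separate cultures, so the p-values measure the spread between libraries. A difference between KO1 and KO2 is a difference between 2 clones. The methods describe the control cells, too, as single-cell clones, and the labels do not say how many gave the 2 control libraries. A difference between KO and control thus cannot be told apart from one between clones, also where the KO libraries are pooled.

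The libraries held between 25367211 and 61110585 counts on genes. Over all tested genes, the lowest correlation of log2 levels between libraries of a group was 0.991 in control, 0.980 in KO1 and 0.938 in KO2. The last, between KO2 replicates 2 and 3, was below the highest correlation of either with another group (0.939 and 0.954). What this spread in KO2 adds to the results was not tested. The targeted gene, listed as 1200007C13Rik, had 35 and 30 counts in control, 2, 7 and 0 in KO1, and 11, 1, 9 and 6 in KO2. The 7 epithelial markers summed to between 4057 and 4243 CPM in control, between 5740 and 7637 CPM in KO1 and between 2305 and 4528 CPM in KO2. These markers did not move together. Krt7 was at 767 and 812 CPM in control and between 2643 and 3348 CPM in KO1. Cdh1 was at 759 and 940 CPM in control and at most 670 CPM in any KO library. Cldn3 was at 358 and 346 CPM in control and at most 171 CPM in KO2. The 5 fibroblast markers summed to between 20.3 and 25.9 CPM in control, between 21.6 and 40.6 CPM in KO1 and between 11.8 and 47.6 CPM in KO2. Most of that was Pdgfra, at 11.7 to 46.9 CPM, while Col1a1 reached at most 3.99 CPM and Dcn and Lum were at 0 in every library. The 5 blood cell markers summed to between 8.15 and 9.68 CPM in control, between 14.3 and 29.3 CPM in KO1 and between 4.91 and 28.9 CPM in KO2, mostly Cd68 where they were high (up to 28.3 CPM). Their part in the results was not tested. The summed markers of endothelial cells, adipocytes and muscle cells, the cell types richest in caveolae, reached at most 1.77, 0.800 and 1.22 CPM. In bulk RNA, fewer cells that express a gene and less RNA per cell cannot be told apart.

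All 6 genes passed the filter on low counts. In GENCODE vM21 on GRCm38, Cav2 (ENSMUSG00000000058, chr6:17281185-17289115, plus strand) and Cav1 (ENSMUSG00000007655, chr6:17306335-17341452, plus strand) are neighbours, with 17219 bp from the end of Cav2 to the start of Cav1. Cavin2 (ENSMUSG00000045954) lies at chr1:51289126-51302960 on the plus strand and Cavin1 (ENSMUSG00000004044) at chr11:100956733-100970887 on the minus strand. Cavin3 (ENSMUSG00000037060) lies at chr7:105480083-105482300 and Ehd2 (ENSMUSG00000074364) at chr7:15946958-15967567, both on the minus strand. The antisense gene Gm15581 overlaps both caveolins and had at most 1 count in a library, and 9330175M20Rik overlaps Cavin2 and had at most 7.

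The promoters of the caveolin pair and of Cavin2 are shown because the caveolins were the members with log2 fold changes below 0 in KO2, and Cavin2 the member whose level differed most between libraries. Each runs from 250 bases before to 50 bases after the RefSeq start on GRCm38.p6, at chr6:17280935-17281234 for Cav2, chr6:17306085-17306384 for Cav1 and chr1:51288876-51289175 for Cavin2, all on the plus strand. Capitals mark matches, on either strand, to the GC box GGGCGG, the AP-1 motif TGANTCA, the TEAD motif GGAATG, the E-box CACGTG or the TATA box TATAAA.
Cav2 promoter: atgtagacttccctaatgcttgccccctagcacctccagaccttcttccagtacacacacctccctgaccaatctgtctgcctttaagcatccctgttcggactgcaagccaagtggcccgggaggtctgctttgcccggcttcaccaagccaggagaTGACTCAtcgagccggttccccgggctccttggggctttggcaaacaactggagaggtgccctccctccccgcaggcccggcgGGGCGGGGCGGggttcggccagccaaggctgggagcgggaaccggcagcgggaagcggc
Cav1 promoter: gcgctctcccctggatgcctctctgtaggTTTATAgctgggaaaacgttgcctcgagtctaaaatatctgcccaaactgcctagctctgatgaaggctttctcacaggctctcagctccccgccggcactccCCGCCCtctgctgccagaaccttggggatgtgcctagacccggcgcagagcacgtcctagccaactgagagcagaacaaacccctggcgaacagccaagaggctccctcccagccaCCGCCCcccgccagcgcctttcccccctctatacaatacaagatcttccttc
Cavin2 promoter: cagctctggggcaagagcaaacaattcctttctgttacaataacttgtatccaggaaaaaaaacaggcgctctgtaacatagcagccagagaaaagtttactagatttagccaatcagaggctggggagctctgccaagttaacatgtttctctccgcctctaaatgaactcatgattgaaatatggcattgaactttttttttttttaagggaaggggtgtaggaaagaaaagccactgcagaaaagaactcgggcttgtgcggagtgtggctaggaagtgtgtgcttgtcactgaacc

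The Cav2 window held 1 AP-1 match and 2 GC boxes that overlap by 1 base, and the Cav1 window 2 GC boxes and 1 match to the TATA box. That last match is on the opposite strand and lies near the first base of the window, far from the RefSeq start. RefSeq gives Cav1 another start, whose window at chr6:17307390-17307689 (62.3% G and C, not shown) held none of the 5 motifs. The Cavin2 window held none of the 5 motifs and was poorer in G and C (43.3%) than those of Cav2 (64.3%) and Cav1 (59.3%), against a median of 52.7% over the 32851 promoters of the table. Of all promoters, 35.7% held a GC box, 7.81% an AP-1 match, 14.7% a TEAD match, 7.15% an E-box and 13.6% a TATA box. The windows of Ehd2 and Cavin1 had 2 and 1 GC boxes, and Cavin1 had 1 TEAD match. Such matches describe the letters of the window only. Cavin3 had no entry.

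Cav2 was read at 167 and 163 CPM (the level as counts scaled to a common library size by the TMM method) in the 2 control libraries. In KO1 it was at 191, 149 and 148 CPM, and in KO2 at 96.6, 119, 82.5 and 105 CPM. Every KO2 library lay below every control and KO1 library, while the KO1 libraries lay on both sides of control. The group means were 165 ± 2.75 CPM (SD, n = 2) in control, 162 ± 24.5 (SD, n = 3) in KO1 and 101 ± 15.3 (SD, n = 4) in KO2. The log2 fold change against control was -0.03 in KO1 and -0.72 in KO2, where the mean was 39.2% lower.

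Cav1, which the set was not chosen on, was at 47.6 and 37.8 CPM in control, 56.4, 51.8 and 39.4 CPM in KO1, and 16.5, 25.4, 18.8 and 39.9 CPM in KO2. Replicates 1 to 3 of KO2 lay below all other libraries, and KO2 replicate 4 lay within the control range. The log2 fold change against control was 0.20 (SE 0.35, adjusted p = 0.709, quasi-likelihood test of edgeR, adjusted by Benjamini-Hochberg over 15023 genes) in KO1 and -0.76 (SE 0.32, adjusted p = 0.120) in KO2. Between the clones it fell by 0.97 on the log2 scale in KO2 against KO1 (SE 0.29, adjusted p = 0.0613), past the threshold of 0.1. That call was lost without KO1 replicate 1, KO1 replicate 2 or KO2 replicate 1 (adjusted p = 0.179, 0.181 and 0.113). Without KO2 replicate 4 Cav1 was also called against control in KO2 (log2 fold change -1.08, adjusted p = 0.0170). Without KO2 replicate 1 the value against control was -0.60 (adjusted p = 0.204).

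**Figure D1:**
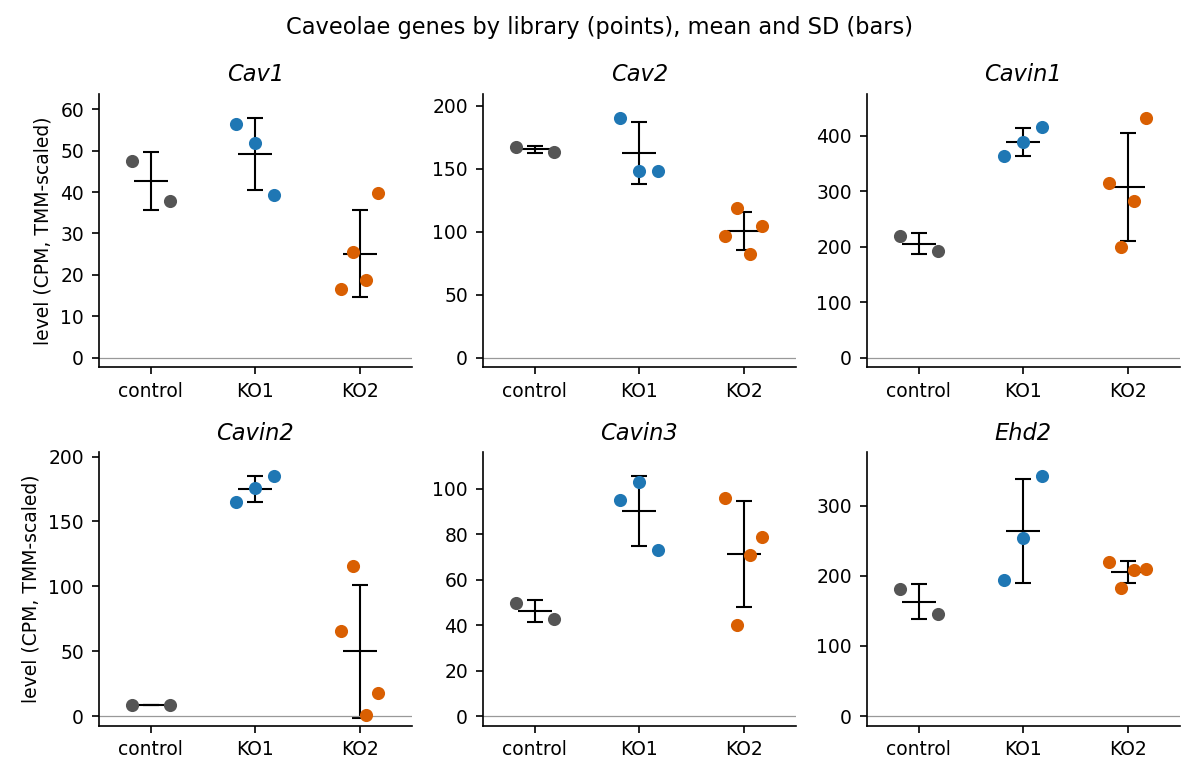
Level of each caveolae gene (CPM, linear axes) in the control, KO1 and KO2 libraries. Points are libraries, horizontal ticks are group means and bars are 1 SD. The Cav2 points of KO2 lie between 82.5 and 119 CPM, below all others, and the Cavin2 points of KO2 spread from 1.15 to 115 CPM.

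The cavins and Ehd2 were higher in KO1. Cavin1 was at 219 and 192 CPM in control, 364, 389 and 415 CPM in KO1 and 315, 199, 283 and 433 CPM in KO2. All KO1 libraries exceeded both control libraries, whereas KO2 replicate 2 fell between them. In KO1 Cavin1 rose 1.89-fold (log2 fold change 0.92, SE 0.27, adjusted p = 0.0382), and in KO2 the log2 fold change was 0.58 (SE 0.26, adjusted p = 0.135). Without KO2 replicate 2 the KO2 value was 0.74 (adjusted p = 0.0234), and without KO2 replicate 4 it was 0.37 (adjusted p = 0.215).

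Cavin2, which helps shape caveolar membrane, had the widest range of the 6 genes. It was at 8.34 and 8.39 CPM in control and at 165, 176 and 185 CPM in KO1, a 20.9-fold rise (log2 fold change 4.39, SE 1.39, adjusted p = 0.0481). The KO2 libraries were at 65.3, 115, 1.15 and 17.9 CPM, so that replicates 1, 2 and 4 lay above control and replicate 3, with 51 counts, below it. The highest KO2 library was 100-fold above the lowest, against 1.12-fold in KO1. The log2 fold change in KO2 was 2.57 (SE 1.24, adjusted p = 0.162). It was 2.98 (adjusted p = 0.0123) without KO2 replicate 3 and 1.74 (adjusted p = 0.275) without KO2 replicate 2. Every KO2 library was below every KO1 library, at a log2 fold change of -1.81 (SE 0.95, adjusted p = 0.236). Without KO2 replicate 3 this was -1.40 (adjusted p = 0.0895), and without KO2 replicate 2 it was -2.64 (adjusted p = 0.106).

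Cavin3, a cavin that binds protein kinase C delta, was at 49.7 and 42.7 CPM in control, 94.8, 103 and 73.1 CPM in KO1 and 95.7, 39.9, 71.0 and 78.6 CPM in KO2. As for Cavin1, KO2 replicate 2 was the one KO library that did not exceed both control libraries. Cavin3 rose 1.95-fold in KO1 (log2 fold change 0.96, SE 0.32, adjusted p = 0.0575), a call lost without KO1 replicate 1 or 2 (adjusted p = 0.120 and 0.143). In KO2 the log2 fold change was 0.63 (SE 0.31, adjusted p = 0.168). It was 0.82 without KO2 replicate 2 (adjusted p = 0.0186) and 0.45 without KO2 replicate 1 (adjusted p = 0.300). KO2 replicate 2 also had the lowest sum of epithelial markers, 2305 CPM, and the part this plays in the cavin values was not tested.

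Ehd2 was at 181 and 146 CPM in control, 195, 254 and 342 CPM in KO1 and 220, 182, 208 and 210 CPM in KO2. Every KO library exceeded both control libraries, the lowest of them, KO2 replicate 2, narrowly. Ehd2 rose 1.61-fold in KO1 (log2 fold change 0.69, SE 0.23, adjusted p = 0.0550), and in KO2 the log2 fold change was 0.33 (SE 0.21, adjusted p = 0.297). The KO1 value was 0.46 (adjusted p = 0.151) without KO1 replicate 3, the highest library, and the call was also lost without KO1 replicate 2 (0.72, adjusted p = 0.103).

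**Figure D2:**
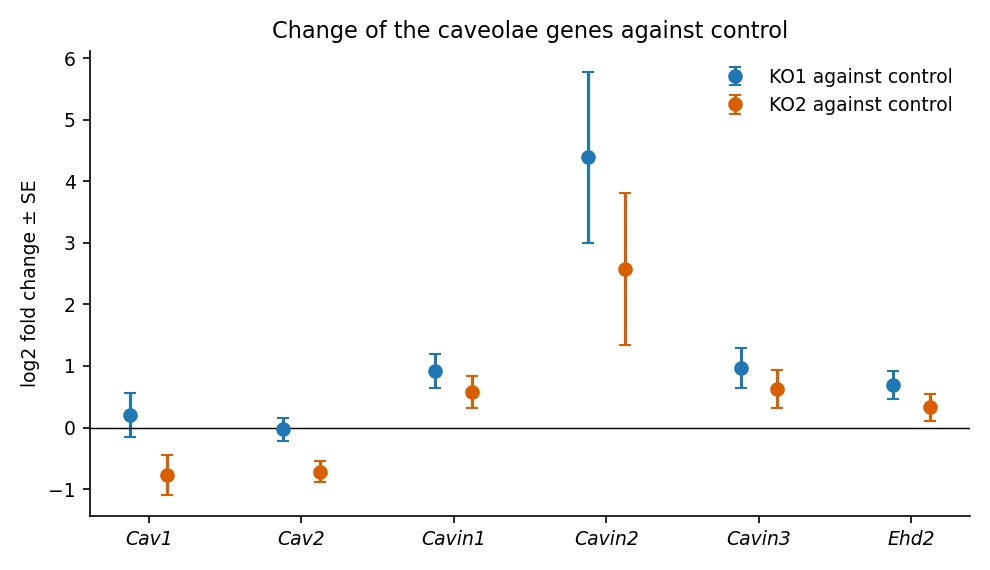
Log2 fold change against control (points) with its standard error (bars) for each caveolae gene in KO1 and KO2. The points and bars of Cav2 are a description and no test, since the set was chosen on its values. Cavin1, Cavin2, Cavin3 and Ehd2 lie above 0 in both clones and lower in KO2, and Cav1 and Cav2 lie below 0 in KO2, at -0.76 and -0.72.

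Of the 5 members other than Cav2, 4 were called higher in KO1 (15.9% of all tested genes were called higher, and 31.6% in either direction). Their median log2 fold change was 0.92, against 0.02 over all tested genes. Libraries of KO1 and control did not overlap for 4 of the 6 members, against 66.9% of all genes. All 4 calls were lost without control replicate 1 (adjusted p from 0.142 to 0.234) and without control replicate 2 (0.223 to 0.312), with log2 fold changes still above 0, and without KO1 replicate 2 there were 2 calls.

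In KO2, 0 of the 5 members were called by edgeR, against 31.4% of all tested genes. DESeq2 called 0, and at an unadjusted p under 0.05 there were 2, Cav1 and Cavin1. Without KO2 replicate 2, 3 or 4 there were 2, 1 and 1 calls. The 31.4% is for the adjusted p of edgeR with every library. Shares of all genes at these other settings are not given here, so the counts have nothing to be read against. KO2 and control libraries did not overlap for Ehd2 (higher) and for Cav2 (lower, as the choice of the set fixed), 2 of 6 members, against 46.9% of genes. Between the clones 1 of 5 members, Cav1, was called, and lower in KO2 (9.43% of genes were called lower and 19.6% in either direction), while KO1 and KO2 libraries did not overlap for Cav2, as the choice of the set fixed, and for Cavin2, 1 of the 5 other members, against 24.5%. This count was 0 without KO1 replicate 1, KO1 replicate 2 or KO2 replicate 1, and 2 without KO2 replicate 3 or 4. The comparisons of KO1 and KO2 with control share the same 2 control libraries.

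With the 7 KO libraries as 1 group, Cavin1 alone was called among the 5 (log2 fold change 0.74, SE 0.27, adjusted p = 0.0947), where 11.9% of genes were called higher and 22.6% in either direction. DESeq2 called 3 members in this comparison. The shares of genes above are those of edgeR, and the share called by DESeq2 is not given here. The call of Cavin1 was lost without either control library, any KO1 library, KO2 replicate 1 or KO2 replicate 4 (adjusted p from 0.111 to 0.441), and without KO2 replicate 2 or 3 there were 2 calls.

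Levels of different genes were compared per length, as CPM per kb of exon. In control cells Cavin1 was highest (57.3 ± 5.16, SD, n = 2), followed by Cav2 (49.6 ± 0.823), Ehd2 (31.9 ± 4.76), Cavin3 (27.8 ± 2.98), Cav1 (12.4 ± 2.02) and Cavin2 (2.74 ± 0.0112). Both control libraries gave this order. The ranges of Ehd2 (28.6 to 35.3) and Cavin3 (25.7 to 29.9) overlapped, and the other neighbours in the order did not. In KO1 Cavin1 stayed highest at 109 ± 7.19 (SD, n = 3) and Cav1 was lowest in each library, while Cavin2 was at 57.3 ± 3.26 and Cav2 at 48.7 ± 7.36. These 2 ranges overlapped, with Cavin2 above Cav2 in replicates 2 and 3 and below it in replicate 1 (54.0 against 57.2). In KO2 Cavin1 was again first in every library, and the last was Cav1 in replicates 1 and 2 and Cavin2 in replicates 3 and 4.

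The 3 cavins summed to 1.46 and 1.37 times the 2 caveolins per length in control, to 2.89, 3.82 and 3.95 times in KO1, and to 4.95, 2.72, 4.04 and 4.05 times in KO2. Cav2 makes up most of the caveolin sum, and its lower values in KO2 are those the set was chosen on, so this ratio in KO2 is a description only. Without Cav2, Cavin1 per length was 4.41 and 4.89 times Cav1 in control, 6.19, 7.21 and 10.1 times in KO1, and 18.4, 7.51, 14.5 and 10.4 times in KO2. Cavin2 made up 2.92 and 3.35% of the cavin sum in control, 25.4, 25.2 and 27.5% in KO1, and 12.8, 32.2, 0.309 and 3.38% in KO2. The sum over the 6 genes was 182 ± 15.7 in control, 335 ± 9.65 in KO1 and 223 ± 33.1 in KO2.

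**Figure D3:**
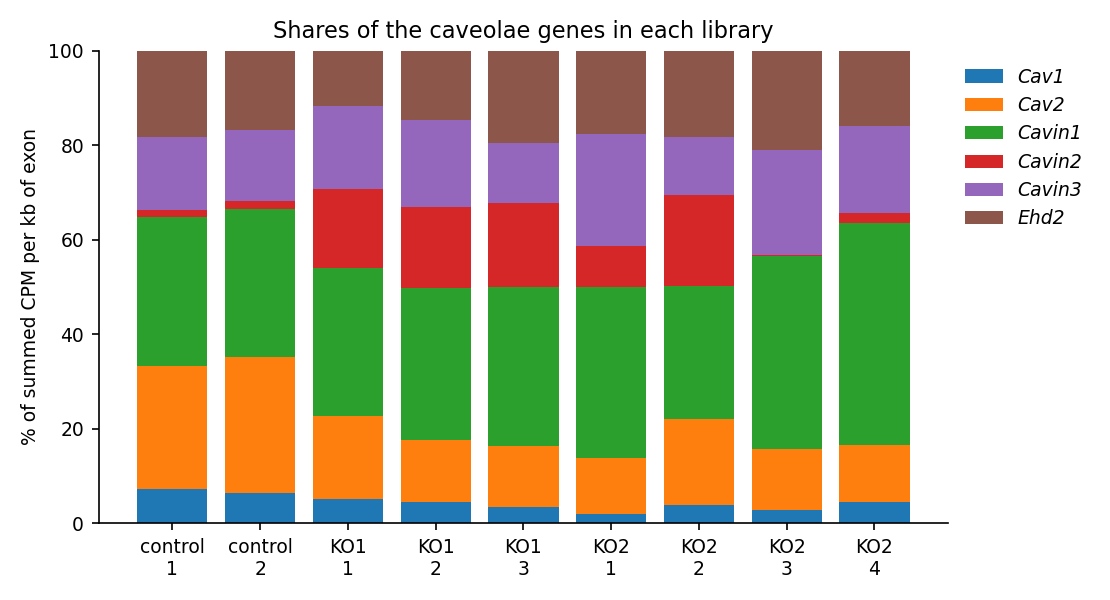
Share of each caveolae gene in the summed CPM per kb of exon of the 6 genes, as 1 stacked bar for each library. Cav2 takes 26.0 and 28.7% in control, 12.9 to 17.7% in KO1 and 11.9 to 18.2% in KO2. Its mean level per kb was 49.6 in control and 48.7 in KO1, so its smaller share in KO1 goes with a larger sum of the 6 genes. Cavin2 takes 0.196% in KO2 replicate 3 and 19.3% in KO2 replicate 2.

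Across the 9 libraries, which share group and depth differences, log2(CPM + 1) of Cav1 and Cav2 had a Pearson correlation of 0.85, that of Cavin1 and Cavin3 0.86 and that of Cavin1 and Ehd2 0.76. Cav2 had -0.09 with Cavin1, 0.40 with Cavin2, -0.12 with Cavin3 and -0.11 with Ehd2. Cav1 had 0.25 with Cavin1, 0.32 with Cavin2, 0.08 with Cavin3 and 0.04 with Ehd2. Ranked among 12027 genes, Cav2 took place 89 for Cav1, and Cavin3 and Ehd2 took places 144 and 600 for Cavin1. Correlations with Cav2 use the values the set was chosen on and are a description only. The tested genes most like each member by this measure, among 12027, were Fam110b (0.97), Atn1 (0.95) and Cd276 (0.95) for Cav2, and Mosmo (0.96), Zkscan7 (0.96) and Ndfip1 (0.94) for Cav1. They were Ankrd27 (0.97), Zranb3 (0.96) and Kctd13 (0.96) for Cavin1, Plscr4 (0.98), Sdhd (0.98) and Pml (0.96) for Cavin2, Nrm (0.96), Zfp511 (0.95) and Zfp775 (0.95) for Cavin3, and Smyd2 (0.96), Lbr (0.95) and Tex30 (0.94) for Ehd2.

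The protein-coding genes within 500 kb of the caveolin pair did not share 1 direction. Tes, a focal adhesion protein, fell by 0.51 in KO1 (SE 0.20, adjusted p = 0.0915), and its log2 fold change was 0.13 in KO2 (adjusted p = 0.641). Met, the receptor of hepatocyte growth factor, rose by 0.71 in KO1 (SE 0.20, adjusted p = 0.0319), with 0.17 in KO2 (adjusted p = 0.538). St7 fell by 0.67 in KO2 (SE 0.19, adjusted p = 0.0327), with -0.49 in KO1 (adjusted p = 0.114). Capza2, an actin capping subunit, was at 0.26 and 0.10 (adjusted p = 0.364 and 0.729), and Tfec had 0 counts in every library.

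The 22 genes of a wider list act with caveolae, and 18 were tested. Cav3, Pacsin1, Ehd3 and Dnm3 had too few counts. In KO1, 3 of 18 were called (31.6% of all genes), 1 higher and 2 lower, and the other 15 ranged from -1.11 to 0.52. Nos3, the endothelial nitric oxide synthase that Cav1 binds, rose from 0.285 and 0.397 CPM in control to 1.43, 1.53 and 1.19 CPM (log2 fold change 2.02, SE 0.59, adjusted p = 0.0360). Dnm1, a membrane scission GTPase, fell by 1.60 (SE 0.58, adjusted p = 0.0742), and the tyrosine kinase Abl1 fell by 0.51 (SE 0.20, adjusted p = 0.0905). The level of Dnm1 was low, at 7.51 and 7.47 CPM in control and between 0.947 and 3.81 CPM in KO1. Dnm2, also on the list, had a mean of 151 CPM in control. It was not called in KO1 (0.23, adjusted p = 0.452) or KO2 (0.12, adjusted p = 0.702). The count was 0 without either control library, 1 without KO1 replicate 3, 7 without KO2 replicate 2 and 5 without KO2 replicate 3.

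In KO2, 9 of 18 were called (31.4% of all genes), 4 higher and 5 lower, and the other 9 ranged from -0.25 to 0.59. Ehd4 and Ehd1, relatives of Ehd2, rose by 0.94 (SE 0.18, adjusted p = 0.00716) and 0.90 (SE 0.27, adjusted p = 0.0374). Ehd4 was at 145 and 136 CPM in control and at 268, 293, 293 and 225 CPM in KO2, with no overlap. Flna, which ties caveolae to actin, rose by 0.68 (adjusted p = 0.0866), and Vcp, which clears unassembled caveolin, by 1.08 (adjusted p = 0.0217). Pacsin2, which bends membrane at caveolae, was at 207 and 234 CPM in control and at 131, 121, 143 and 105 CPM in KO2. It fell by 0.82 (SE 0.18, adjusted p = 0.0118). Flot1, a raft scaffold, fell by 1.43 (SE 0.46, adjusted p = 0.0519) and Dnm1 fell by 2.38 (SE 0.54, adjusted p = 0.0137). Among kinases, Prkcd, which Cavin3 binds, fell by 0.81 (SE 0.18, adjusted p = 0.0140) and Src, which phosphorylates Cav1, fell by 0.49 (SE 0.18, adjusted p = 0.0770). Without control replicate 1 or 2, 3 and 2 of these genes were called.

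**Figure D4:**
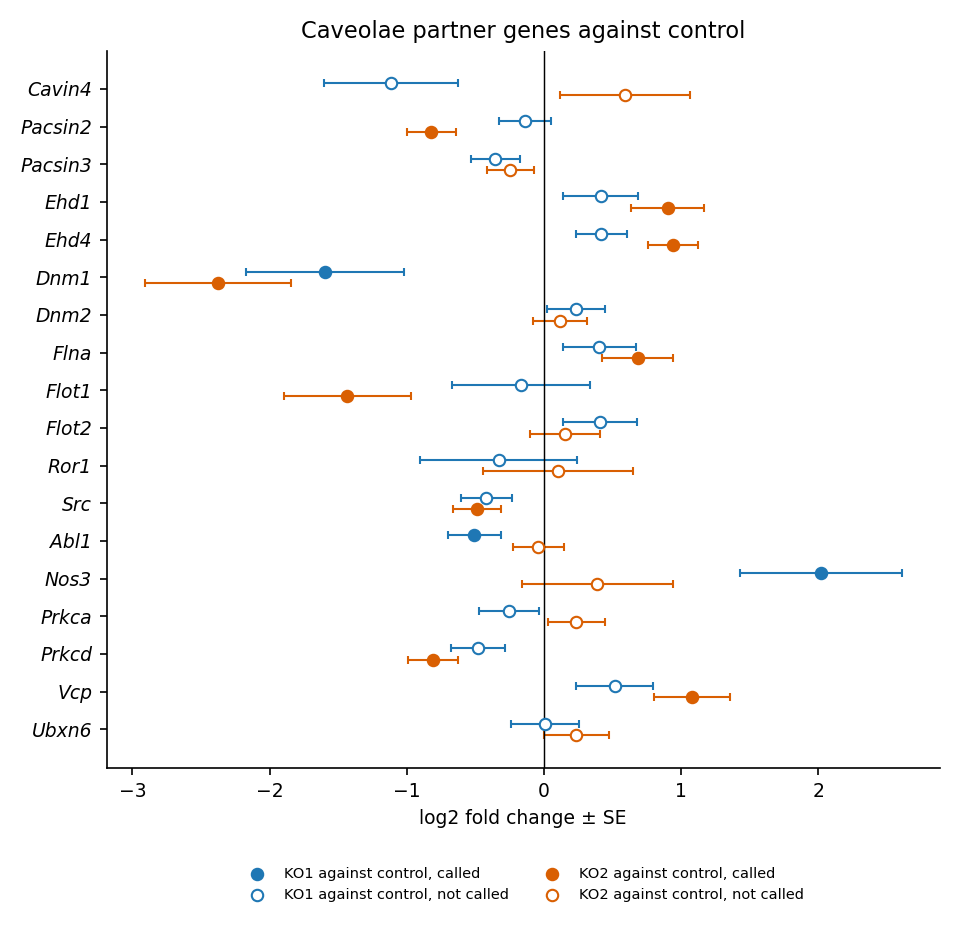
Log2 fold change against control with its standard error for the 18 tested partner genes, in KO1 and KO2. Filled points passed the adjusted p of 0.1, 3 in KO1 and 9 in KO2, and Dnm1 passed it in both.

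Between the clones 6 of 18 partner genes were called (19.6% of all genes). Cavin4, the muscle cavin, was higher in KO2 by 1.71 (SE 0.43, adjusted p = 0.0362), at a level of at most 2.87 CPM, as were Ehd4 by 0.52 (adjusted p = 0.0581) and Abl1 by 0.47 (adjusted p = 0.0993). Lower in KO2 were Pacsin2 at -0.68 (adjusted p = 0.0275), Flot1 at -1.27 (adjusted p = 0.0812) and Nos3 at -1.63 (adjusted p = 0.0485). The count was 0 without KO1 replicate 2, 2 without KO1 replicate 1 and 3 without either control library, KO1 replicate 3 or KO2 replicate 1.

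The ChIRP-seq data are 4 lists of peaks, each called on pooled libraries against a pulldown of Ppib RNA, for all 14 MaTAR25 oligos in 4T1 cells (total pool), the odd and the even oligos in 4T1 cells, and all oligos in NDL cells. Within 10 kb of the gene, the total pool had a peak at 4 of the 6 members, against 76.1% of the 14953 tested genes with a position. The odd pool had one at 3 (67.6% of genes), the even pool at 4 (67.1%) and the NDL list at 3 (74.6%). At this distance, with all peaks, the members' shares were not above those of all genes. With other limits they fell on either side. Counting peaks in the gene itself, 3 members had one in the total pool (51.5% of genes), 3 in the odd pool (44.7%), 3 in the even pool (45.1%) and 2 in NDL cells (50.5%). Within 10 kb at a score of at least 100 it was 3 in the total pool (35.4% of genes), 1 in the odd pool (31.3%), 2 in the even pool (24.7%) and 2 in NDL cells (30.8%). Cavin3, the shortest gene of the set, had no peak within 10 kb in any list, and Cav2 had such peaks in the odd pool only. Each list pools the replicate libraries of its pulldown, so the spread between those libraries is not shown.

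Sequences are shown for 1 peak with a score of at least 100 at each member that had such a peak, with the longest exact match to a MaTAR25 oligo in capitals. Of the 2 such peaks in Cav1, the one with the longer match is given, and the other had the higher score (135.8). The Cav1 sequence lies in the intronic peak chr6:17314588-17315087 (score 118.5) and the Cavin2 sequence in the intronic peak chr1:51297513-51298012 (score 105.2). The Ehd2 site lies in the peak chr7:15947080-15948558 over the last exon (score 230.8), in the 3′ untranslated region. The Cav2 sequence is from the odd pool, at chr6:17270537-17271294 (score 198.9), 9.89 kb before the gene. All are given on the plus strand of GRCm38.
Cav1 intron: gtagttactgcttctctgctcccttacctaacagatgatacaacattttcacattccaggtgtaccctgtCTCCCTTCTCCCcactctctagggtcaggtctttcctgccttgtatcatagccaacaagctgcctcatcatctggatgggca
Cavin2 intron: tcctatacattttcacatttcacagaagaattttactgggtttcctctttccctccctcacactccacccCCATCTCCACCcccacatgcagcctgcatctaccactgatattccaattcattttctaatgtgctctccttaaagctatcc
Ehd2 last exon: gggaacattGGTGGTGGAGATcagagagag
Cav2 upstream: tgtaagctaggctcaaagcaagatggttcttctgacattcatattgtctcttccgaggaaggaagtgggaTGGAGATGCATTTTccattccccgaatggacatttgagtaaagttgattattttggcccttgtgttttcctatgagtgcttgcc
MaTAR25 oligo 12: aatagggagaagggaggctc
MaTAR25 oligo 4: caggtggtggagatggaatg
MaTAR25 oligo 3: tcctggagatgcattttttc

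The Cav1 match was 12 bases of oligo 12 on the opposite strand, the Cavin2 match 11 bases of oligo 4 on the opposite strand, the Ehd2 match 12 bases of oligo 4, and the Cav2 match 14 bases of oligo 3. A match of at least 12 bases was present in 3 of the 10 peaks at members in the total pool, 1 of 5 in the odd pool, 3 of 11 in the even pool and 4 of 9 in the NDL list. Over all peaks of these lists the shares were 24.2, 23.8, 19.8 and 23.6%. Matches to all 14 oligos were sought in every list. The values of the odd and even pools thus also take in oligos that were not in that pulldown. The Ehd2 exon peak overlapped the same exon in all 4 lists, with scores of 95.7 in the odd pool, 203.2 in the even pool and 289.5 in NDL cells. Cav1 peaks at 8.50 kb and 4.57 kb from the gene start, the second upstream, were also found in the even pool and in NDL cells and not in the odd pool. The Cav1 peak with the highest score in the total pool (135.8, at 20.5 kb) recurred in the even pool and not in NDL cells or the odd pool. The Cavin2 intronic peak recurred in the even pool (score 111.2) and had no counterpart within 10 kb in NDL cells.

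**Figure D5:**
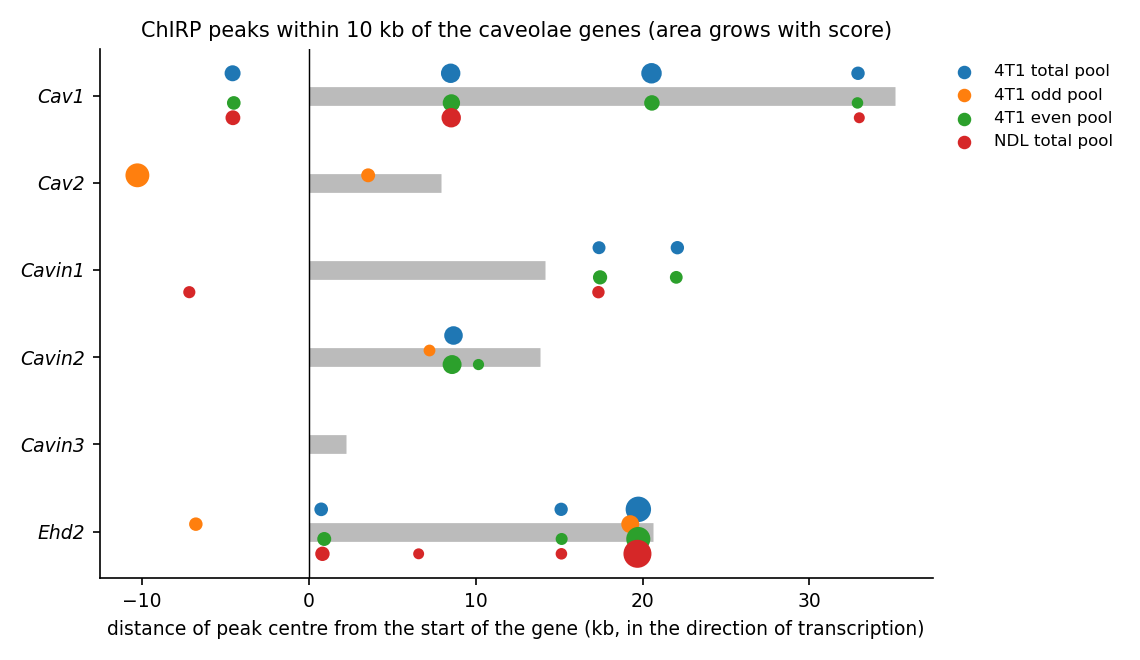
Distance of each ChIRP peak centre from the start of its gene (kb, negative before the start), for peaks within 10 kb of the 6 genes. Grey bars span the genes, colors are the 4 peak lists and the area of a point grows with its score. The highest score, 289.5, is that of the Ehd2 last-exon peak in NDL cells, and Cavin3 has no point.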

How the data were processed

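RNA-seq counts of 4T1 control, KO1 and KO2 cells (2, 3 and 4 libraries) and 4 ChIRP-seq peak lists were used, in 13 deposited files. For the count files, the authors used STAR for the alignment of single-end reads (GRCm38) and HTSeq for counting per gene of GENCODE vM5. The deposited values are raw counts, and no source used here gives the strand setting. Between 33.9 and 37.0% of the counts of a library named no gene and were left out. KO2 replicate 2 lists every gene 3 times with identical values, used once. The peak lists hold the deposited peak score of HOMER over pooled libraries, mapped with Bowtie2 and called by the authors against Ppib pulldown.

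Counts were fitted in R 4.3.3 with edgeR 4.0.16 (TMM, filterByExpr, quasi-likelihood test, Benjamini-Hochberg over 15023 genes, threshold 0.1) with control, KO1 and KO2 as 3 groups, and with the 7 KO libraries as 1 group in a second fit. The study used DESeq2, which is an alternative here (1.42.0). Standard errors of log2 fold changes were derived from the F statistic of the quasi-likelihood test of edgeR. The fits were tested on simulated data. CPM uses TMM-scaled library sizes, and CPM per kb uses the union of exons of GENCODE vM21. Likeness used a pseudocount of 1. Of 45318 genes, 44671 were given a symbol by identifier. Peaks were assigned to a gene within 10 kb, and oligo matches were exact, on either strand, in Python 3.11.15. Promoters came from RefSeq, with 5 of 6 members matched.

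The members, the partner list and the tests were chosen with earlier results of these data known. Named were the 6 members, the 22 partners, neighbours within 500 kb of the caveolin pair, and for each member the 3 tested genes (mean of at least 1 CPM) with the highest correlation. Alternatives were DESeq2, RLE size factors, no filter, at least 10 counts in every library, only the groups compared, an adjusted p of 0.05, the replicate number as a block and leaving out each library, and for peaks the gene itself, 50 kb, a score of at least 100 and the other lists.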

Additional observations from a re-analysis of the deposited data

Results flagged for a closer look

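The clones differed, by the direct test of KO2 against KO1 in edgeR's quasi-likelihood fit, for 1 caveolae gene and 6 partner genes, where 19.6% of all tested genes were called. The call of Cav1 was lost without KO1 replicate 1, KO1 replicate 2 or KO2 replicate 1, and the partner count was 0 without KO1 replicate 2. Cav1 was lower in KO2, with a log2 fold change of -0.97 (adjusted p = 0.0613), as were Pacsin2 at -0.68 (adjusted p = 0.0275), Flot1 at -1.27 (adjusted p = 0.0812) and Nos3 at -1.63 (adjusted p = 0.0485). Cavin4 was higher in KO2 at 1.71 (adjusted p = 0.0362), as were Ehd4 at 0.52 (adjusted p = 0.0581) and Abl1 at 0.47 (adjusted p = 0.0993).

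Nos3 in KO2 replicate 3 stood apart from the other KO2 libraries, at 0.882 CPM against 0.266 to 0.337 CPM, by Dixon's criterion for 4 samples, which marks about 1 group in 20 by chance.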

How the results depend on the processing

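The log2 fold changes of Cav1, Cavin1, Cavin2, Cavin3 and Ehd2 kept their sign under every alternative run in all 4 comparisons. That of Cav2 in KO1, near 0, ranged from -0.16 to 0.07, and in KO2 from -0.81 to -0.63. Counts of calls moved more, and the cause was not tested. At an adjusted p of 0.05, 2 members were called in KO1, 0 between the clones and 0 in the pooled comparison, and among partners 1 in KO1 and 3 between the clones. All genes called then numbered 1643 between the clones and 2235 pooled. With no filter on low counts there was 1 member in KO2 and 0 pooled, and with DESeq2 3 pooled. With only the groups compared, 9 partners and 7752 genes were called in KO1 and 1932 genes between the clones. Leaving out 1 library gave 0 to 4 members in KO1, 0 to 2 in KO2, between the clones and pooled. It gave 0 to 7, 2 to 9 and 0 to 9 partners, and 1482 to 5661, 1366 to 5352, 874 to 4077 and 462 to 3976 genes, where the lowest numbers of genes in KO1, KO2 and pooled came without control replicate 1. The ratio of the highest to the lowest member per length in control, 20.9, ranged from 19.5 to 22.3. In the 4T1 total pool, 3 members had a peak in the gene itself (51.5% of all genes), 6 within 50 kb (98% of genes) and 3 at a score of at least 100 (35.4% of genes).

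The replicate numbers were not used to pair the libraries. The correlation of deviations from the group means ran from -0.15 to 0.04 for same-numbered libraries and from -0.12 to 0.15 for the others. The deviations of the 2 control libraries mirror each other, so these values cannot decide whether same-numbered libraries share a batch. With the number as a block, Ehd2 in KO1 was no longer called (log2 fold change 0.56, adjusted p = 0.155), and 3, 1, 1 and 0 members were called in KO1, in KO2, between the clones and pooled. There were 1, 5 and 3 partners in the first 3 and 3988, 3689, 1736 and 1952 genes. With 2 control libraries, a gene call against control rests on a spread shared with the KO groups.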
